A study of Mus musculus with 6 samples.

Results

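The genes described here are the Wnt ligands of the mouse and the proteins that receive, sharpen or block them at the cell surface, together with the 2 Axins inside the cell. They were chosen by name alone, as every gene on the array called Wnt, Fzd, Sfrp, Dkk, Wif1, Lrp5, Lrp6, Rspo or Axin with its number. This gave 46 genes of 27343 on the array, read by 64 probes. They were 19 Wnt ligands, 10 Frizzled receptors, 2 Lrp co-receptors, 4 R-spondins, 9 secreted antagonists and 2 Axins.

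The study measured kidney RNA on 6 single-colour Agilent arrays and asked how kidneys of mice with and without the adhesion G protein-coupled receptor Gpr97 respond to renal ischaemia/reperfusion (loss of blood flow to the kidney followed by its return). There were 2 arrays of sham-operated wild-type kidney, 2 of injured wild-type kidney, 1 of sham-operated Gpr97-deficient kidney and 1 of injured Gpr97-deficient kidney. All mice were labelled male. The sources used here do not state strain, age, the kind of deletion, how long ischaemia lasted or when kidneys were taken. Nothing in the labels ties each array to its own mouse, so a p-value reflects the spread of these arrays alone, which may be technical. Deficient kidney had 1 array per surgery, so its own spread was not measured.

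Wnt proteins are secreted lipid-modified signals that bind a Frizzled receptor and an Lrp5 or Lrp6 co-receptor, which stops the Axin-based complex from destroying beta-catenin and lets beta-catenin switch on target genes with Tcf/Lef factors. R-spondins raise the amount of Frizzled on the cell surface, Sfrps and Wif1 bind Wnts outside the cell, and Dkk1 blocks Lrp5 and Lrp6. In the kidney, Wnt9b and Wnt4 drive nephron formation in the embryo, Wnt7b and Wnt11 act in the growing ureteric tree and collecting duct, and the pathway is known to be engaged again after tubular damage.

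Values are log2 signals relative to the 75th percentile of each array, so 1 unit is a factor of 2. Levels are compared only between arrays for the same probe. A probe was called well above background by the scanner software. Between 63.0% and 71.1% of probes were so on each array, and a gene was tested when 2 or more of the 6 arrays reached that level. On slide 1 were sham array 1 and injured array 2 of the wild type, which had a higher floor (lowest such signal -4.48 and -4.62) than the 4 arrays of slide 2 (-5.49 to -5.87). All 12 proximal tubule, 10 collecting duct and 8 podocyte markers were well above background on every array. Adgrg3, the current name of Gpr97, read 0.02 to 1.18 on the wild-type arrays and -5.38 and -5.75 on the deficient arrays. Wild-type injured array 1 went against its label. It read 4.05 for Xist, the RNA of the inactive X chromosome, against -5.45 or less elsewhere, and 1 of 5 sex-linked markers was well above background on it against 4 on each other array. Results that rest on it are therefore also given without it.

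Of the 46 genes, 36 were tested and 27 were well above background on all 6 arrays. All 10 Frizzled receptors, both Lrp co-receptors, both Axins, 8 of 9 antagonists, 12 of 19 ligands and 2 of 4 R-spondins were tested. Dkk4, Rspo2, Rspo3, Wnt3, Wnt3a, Wnt7a, Wnt8a and Wnt8b were well above background on no array. Wnt10b and Wnt2b were so on the Gpr97-deficient sham array alone.

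Most of the tested Wnt genes did not separate injured from sham kidney, and those that did went in both directions. Wnt10a and Wnt9a among the ligands and Fzd2 among the receptors were higher on every injured array than on any sham array. Fzd1, the co-receptor Lrp6, the antagonist Dkk2 and, by a margin whose direction did not hold, Fzd8 were lower on every injured array. Dkk2 did so narrowly, with -0.353 on the deficient sham array and -0.358 on wild-type injured array 1. With normexp 1 member lay below all sham arrays, and with the deposited values 2 did, so some of these genes lost the separation. No member passed an adjusted p of 0.05 in limma with Benjamini-Hochberg adjustment over all genes, and neither did any other gene (0% of 19615). In whole tissue, fewer cells of a type and less RNA per cell cannot be told apart, here or below.

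The 3 members that lay above were 3 of 36, where 9.69% of all genes did so. The 4 that lay below compare with 13.1% of all genes. At an unadjusted p under 0.05, 2 members were higher (5.56% of all genes) and 1 was lower (6.71%). The median difference of the tested members was -0.05, beside -0.06 over all genes tested. With normexp it was 0.46, beside 0.19 over all genes. Counted by pairs of arrays from the same slide, 4 members were higher on the injured array in all 3 pairs (18.7% of all genes) and 6 were lower in all 3 (26.4%). The members' shares thus lay near or under those of all genes.

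The 3 pairs often disagreed. The members' median was -0.25 in the wild-type pair on slide 1, 0.26 in the wild-type pair on slide 2 and -0.06 in the deficient pair, and for the ligands it was -0.44, 0.43 and 0.06. Over all genes the same medians were -0.11, -0.003 and -0.05. The wild-type pair on slide 2 holds the array that went against its sex label. The part of that array, and of the slides, in the disagreement was not tested.

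**Figure D1:**
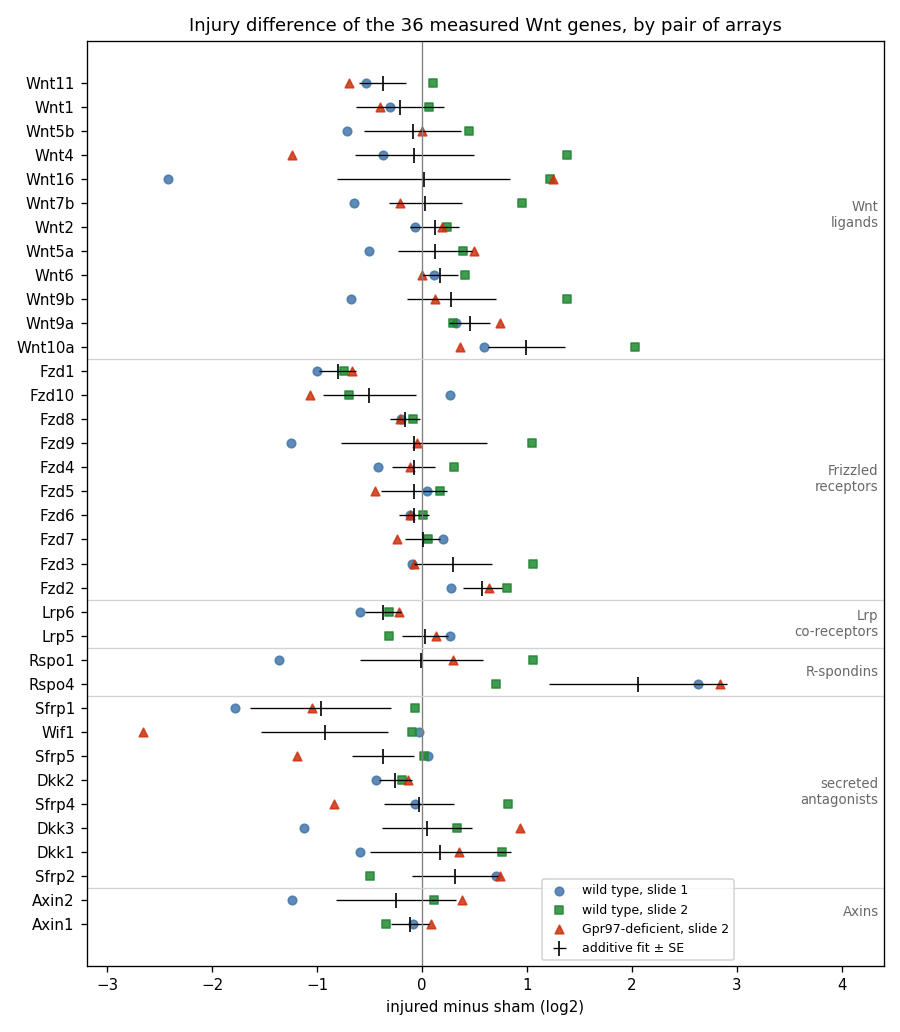
Difference of injured minus sham kidney (log2, horizontal axis) for the 36 tested genes, grouped by role, in each of the 3 pairs of arrays on one slide; the vertical tick and bar give the additive fit and its SE. Fzd1, Fzd2, Wnt10a, Wnt9a, Lrp6 and Dkk2 have all 3 pairs on one side of 0, while Wnt16, Wnt9b, Wnt7b and Rspo1 have wild-type pairs on opposite sides.

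Among the ligands, Wnt10a, which signals through beta-catenin and is best known in skin and tooth, had the largest difference. It read -1.86 and -2.32 on the wild-type sham arrays and -1.51 on the deficient sham array. The injured arrays read -0.29 and -1.27 in wild type and -1.15 in deficiency. All 3 injured arrays were thus above all 3 sham arrays, with wild-type injured array 1 highest. The difference was 0.99 (SE 0.37), a factor of 1.99 (limma, unadjusted p = 0.0431, adjusted p = 0.392). Without wild-type injured array 1 it was 0.62 (SE 0.25, limma adjusted p = 0.315). The neighbouring ligand gene Wnt6, whose probe lies 19.3 kb away on chromosome 1, differed by 0.17 (SE 0.17), and its second probe went the other way (-0.21).

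Wnt9a, a ligand with roles in joints and blood stem cell formation, read -2.95, -3.21 and -2.94 on the sham arrays (mean -3.03 ± 0.15, SD, n = 3). It read -2.92, -2.63 and -2.20 on the injured arrays (mean -2.58 ± 0.36, SD, n = 3). The groups did not overlap, but wild-type injured array 1 lay almost level with the sham arrays. The difference was 0.45 (SE 0.20, limma adjusted p = 0.439), and its second probe was well above background on no array.

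The ligands with known parts in the kidney did not separate the surgeries. Wnt7b, expressed by collecting duct, ranged from -2.42 to -1.32 on sham and from -1.97 to -1.47 on injured arrays, a difference of 0.03 (SE 0.35, limma adjusted p = 0.986). Wnt11, a ligand of the ureteric bud tip, read -2.52, -3.06 and -2.86 on sham and -2.96, -3.06 and -3.55 on injured arrays. The lowest Wnt11 value was that of the deficient injured array, and the groups overlapped. Its difference was -0.38 (SE 0.22, limma adjusted p = 0.547), and it was 0.33 with the normexp background correction. Wnt4, which turns mesenchyme into epithelium, was well above background on wild-type injured array 1 and the deficient sham array alone. It gave a fitted difference of -0.08 (SE 0.57, limma adjusted p = 0.978), which was above 0 under normexp, quantile and deposited values. In deficiency its injured reading, which was not well above background, was 2.36-fold lower than sham. Where a fold is given below as at least a value, a dim array reading under its lowest measurable signal was set at that signal.

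The other ligands had no common direction. Wnt16 gave 1.21 and 1.24 in the pairs on slide 2, and in the wild-type pair on slide 1 the injured array was lower and not well above background. Its fitted difference was 0.01 (SE 0.83). Wnt5a, a ligand of beta-catenin-independent signalling, read -1.10, -2.25 and -2.08 on sham and -1.86, -1.61 and -1.58 on injured arrays. These overlapped, with a difference of 0.12 (SE 0.35). The remaining ligands, Wnt1, Wnt2 and Wnt5b, differed by -0.21 (SE 0.42), 0.12 (SE 0.23) and -0.09 (SE 0.46), and Wnt9b is described with the genotype.

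The Frizzled receptors held the clearest opposite pair. Fzd1 read 2.62 and 2.26 on the wild-type sham arrays and 2.01 on the deficient sham array. It read 1.52 and 1.62 on the wild-type injured arrays and 1.34 on the deficient injured array. Every injured array lay below every sham array. The difference was -0.81 (SE 0.18), a 1.75-fold lower level (limma, unadjusted p = 0.00578, adjusted p = 0.273). Its 3 pairs gave -1.01, -0.74 and -0.67. Without wild-type injured array 1 the difference was -0.76 (SE 0.20, limma adjusted p = 0.222).

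Fzd2 read -0.92, -0.96 and -0.82 on the sham arrays, a narrow range (mean -0.90 ± 0.08, SD, n = 3). It read -0.16, -0.65 and -0.17 on the injured arrays (mean -0.33 ± 0.28, SD, n = 3). All injured arrays were higher, with wild-type injured array 2 nearest to sham. The difference was 0.57 (SE 0.19), a factor of 1.49 (limma, unadjusted p = 0.0290, adjusted p = 0.365). Leaving out wild-type injured array 1 gave 0.44 (SE 0.18, limma adjusted p = 0.326). A second, dimmer Fzd2 probe on the same gene differed by only 0.05, so the difference was seen with 1 of its 2 probes.

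In genomic terms, the Fzd1 probe lies at chr5:4754003-4754062 on the minus strand and the brighter Fzd2 probe at chr11:102467613-102467672 on the plus strand (mm9). RefSeq promoter windows were found for 29 of the 46 genes, and 32 promoters in all. The letters CTTTGA on either strand (TCAAAG on the other), the core bound by Tcf/Lef factors, were looked for in the 250 bases before each start. They were present in 4 of 32 members' promoters (12.5%), against 13.8% of all 32851 promoters. These were the windows of Fzd1 and Dkk1, the Wnt11 window printed below but not its other window, and 1 of 3 for Wnt5b. The members' promoters had a median of 22 CpG and 68.6% GC, against 6 and 52.4% over all promoters. The windows of Fzd1, the most separated receptor, and Wif1, the antagonist with the largest interaction of injury and genotype, are shown. So is the matching window of Wnt11, a kidney ligand, each 5′ to 3′ on the gene's own strand. The matched letters are in capitals, Wif1 has none, and a match is a description of the sequence only. The coordinates are GRCm38.p6: chr5:4758217-4758466 (minus), chr7:98834862-98835111 (plus) and chr10:121033754-121034003 (plus).
Fzd1: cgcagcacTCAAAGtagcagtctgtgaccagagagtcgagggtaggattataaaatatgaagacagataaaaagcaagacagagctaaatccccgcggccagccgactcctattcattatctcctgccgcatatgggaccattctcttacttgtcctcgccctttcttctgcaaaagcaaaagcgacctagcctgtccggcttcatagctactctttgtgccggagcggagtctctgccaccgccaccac
Wnt11: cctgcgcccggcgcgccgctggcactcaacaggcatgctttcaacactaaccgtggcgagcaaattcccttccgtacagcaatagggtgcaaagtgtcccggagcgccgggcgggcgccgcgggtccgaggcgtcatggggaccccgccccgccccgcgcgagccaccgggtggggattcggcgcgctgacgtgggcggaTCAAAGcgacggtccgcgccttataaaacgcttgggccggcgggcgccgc
Wif1: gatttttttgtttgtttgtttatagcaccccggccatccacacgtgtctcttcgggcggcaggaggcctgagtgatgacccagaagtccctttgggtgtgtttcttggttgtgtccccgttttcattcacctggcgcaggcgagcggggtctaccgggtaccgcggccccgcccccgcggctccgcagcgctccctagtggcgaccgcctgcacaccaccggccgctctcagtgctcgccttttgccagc

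Fzd8, a receptor of the ureteric bud, read between -2.97 and -2.83 on sham and between -3.16 and -3.05 on injured arrays. The groups did not overlap but differed by only -0.17 (SE 0.14, limma adjusted p = 0.681). A second Fzd8 probe differed by 0.16, and the normexp background correction gave 0.37, so no direction is given for this gene. The other receptors did not separate the surgeries. Fzd7 was among the closest to 0 (0.004, SE 0.17), and Fzd4, a receptor for norrin and Wnts on endothelium, differed by -0.08 (SE 0.21). Fzd9, Fzd3, Fzd5, Fzd6 and Fzd10 differed by between -0.50 and 0.29.

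Of the co-receptors, Lrp6 was lower on every injured array and Lrp5 was not. Lrp6 read -0.47, -0.41 and -0.58 on sham and -0.73, -1.06 and -0.80 on injured arrays. The difference was -0.38 (SE 0.17, limma adjusted p = 0.460), and a second Lrp6 probe gave -0.64, in the same direction. Leaving out wild-type injured array 1 gave -0.45 (SE 0.19, limma adjusted p = 0.336). Lrp5 ranged from -0.01 to 0.06 on sham and from -0.31 to 0.32 on injured arrays, a difference of 0.03 (SE 0.22).

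Rspo4 was measurable on injured arrays alone, and not on all of them. R-spondins bind Lgr receptors and prevent removal of Frizzled from the membrane. Rspo4 was well above background on no sham array but on 2 of the 3 injured arrays, at -2.51 on wild-type injured array 2 and -3.28 on the deficient injured array. Wild-type injured array 1 read -5.46, which was not well above background. In deficiency the injured level was at least 5.01-fold higher than sham. Within wild type 1 of 2 injured arrays was measured, and the dim one has no lower limit. No least fold is therefore given for wild type or for all arrays. The fitted difference, which rests on dim sham values, was 2.06 (SE 0.85, limma adjusted p = 0.425). It was 3.01 without wild-type injured array 1, which overlapped the sham arrays. Rspo4 was tested through its injured arrays alone, so the filter set the direction and these fits do not test it. A second Rspo4 probe was well above background on no array. Rspo1 read -3.00, -3.28 and -2.95 on sham and -2.22, -4.37 and -2.65 on injured arrays, the pairs running both ways with a difference of -0.01 (SE 0.58).

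**Figure D2:**
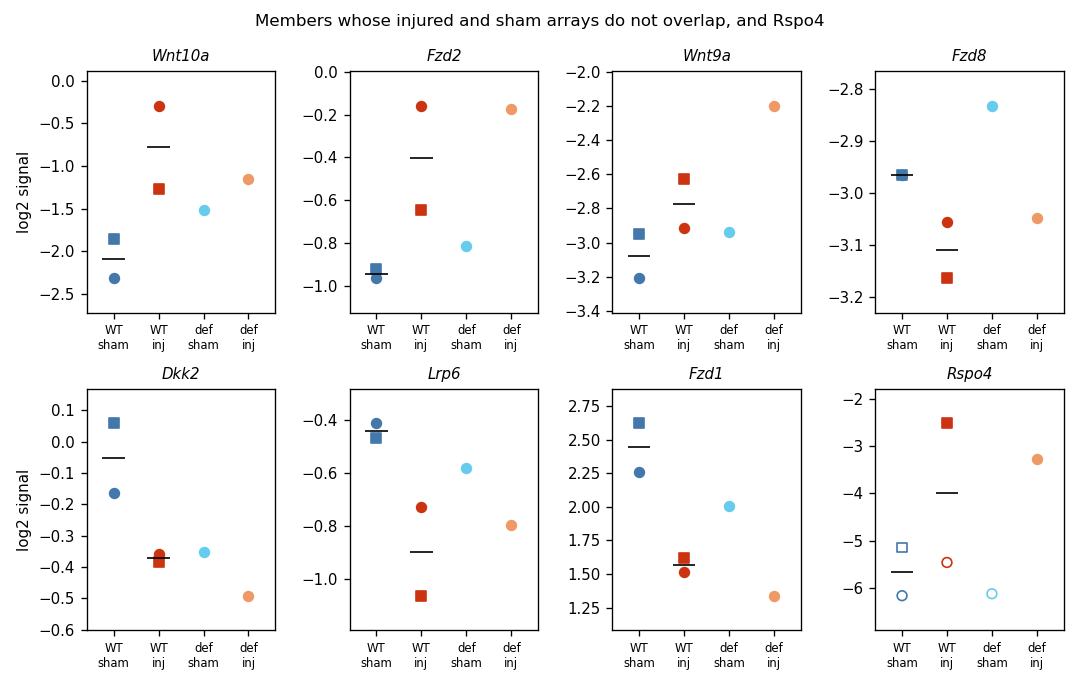
Log2 signal (relative to each array's 75th percentile) of the 7 genes whose injured and sham arrays do not overlap and of Rspo4. Squares are the 2 arrays of slide 1 and circles the 4 arrays of slide 2, bars are wild-type means of 2 arrays, and open symbols were not well above background; the vertical scales differ between panels.

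Among the 8 secreted antagonists tested, Dkk2 alone was lower on every injured array and none was higher. Dkk2 read 0.06, -0.17 and -0.35 on sham and -0.36, -0.38 and -0.49 on injured arrays. Its difference was -0.26 (SE 0.16, limma adjusted p = 0.556), and -0.25 without wild-type injured array 1. The deficient sham array lay close to the injured arrays. Dkk3, a divergent family member known in kidney fibrosis, ranged from -1.84 to -1.0 on sham and from -2.13 to -0.91 on injured arrays, with a difference of 0.05 (SE 0.43).

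Sfrp1, which binds Wnts, read 2.55, 3.28 and 3.23 on the sham arrays. It read 3.21 on wild-type injured array 1, 0.77 on wild-type injured array 2 and 2.18 on the deficient injured array. The lower value on wild-type injured array 2 was seen with both Sfrp1 probes. The difference was -0.97 (SE 0.67, limma adjusted p = 0.601), and without wild-type injured array 1 it was -1.68 (SE 0.39, limma adjusted p = 0.202). On wild-type injured array 2 the median of the 10 collecting duct markers was 0.74 below the wild-type sham mean and that of the 8 thick ascending limb and distal tubule markers 1.40 below. On the deficient injured array they were 0.06 and 0.46 below. The part of these cells in the Sfrp1 values was not tested.

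Many fibroblast and pericyte markers moved with surgery as well. Of the 11, 7 were higher on every injured array and 0 lower on every one. The median of the 11 lay 0.71 and 0.84 above the wild-type sham mean on the wild-type injured arrays and 1.31 above on the deficient injured array. The list was not uniform. Dcn read 2.81 and 2.19 on the wild-type injured arrays, against 3.84 and 3.10 on wild-type sham. Lum read -4.04 on wild-type injured array 2 and -4.03 on the deficient injured array, below every sham array. Sfrp2 and Sfrp4, antagonists that fibroblasts can express, had overlapping groups. Sfrp2 read -0.98, -1.17 and -1.75 on sham and -1.67, -0.28 and -1.01 on injured arrays. Its difference was 0.31 (SE 0.41), and the groups overlapped. Leaving out wild-type injured array 1 gave 0.77 (SE 0.17, limma, unadjusted p = 0.0108, adjusted p = 0.193). Sfrp4 differed by -0.03 (SE 0.34). Proximal tubule markers were lower on every injured array for 7 of 12, with medians 0.68, 1.70 and 1.17 below the wild-type sham mean. The part of the tissue's changing cell make-up in the members' values was not tested.

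Neither Axin separated the surgeries. Axin2, the direct feedback target of beta-catenin and a usual readout of the pathway, was well above background on wild-type sham array 1 (-3.64) and the deficient injured array (-5.35) alone. In deficiency its injured level was at least 1.19-fold higher than sham. In wild type 1 of its 4 values was measured, so no fold is given. Axin1, a scaffold of the destruction complex, was well above background on all 6 arrays and differed by -0.11 (SE 0.18). Of the remaining antagonists, Dkk1 was well above background on 4 arrays and differed by 0.17 (SE 0.67).

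**Figure D3:**
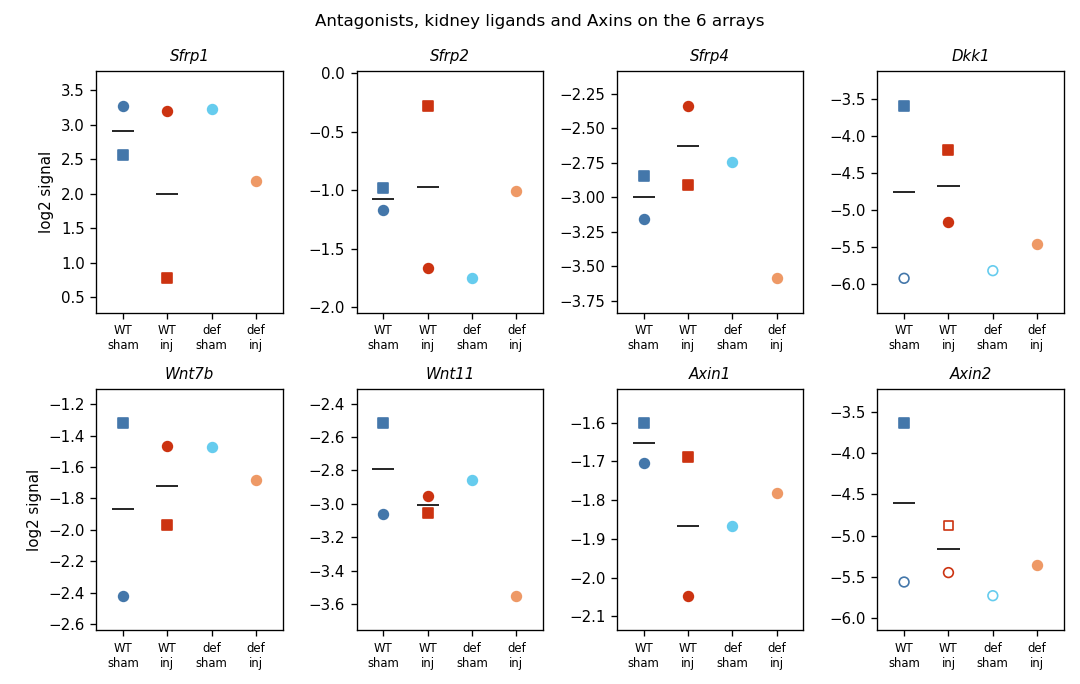
Log2 signal of Sfrp1, Sfrp2, Sfrp4, Dkk1, Wnt7b, Wnt11, Axin1 and Axin2 on the 6 arrays, with squares for slide 1, circles for slide 2, bars for wild-type means of 2 arrays and open symbols for probes near background. Sfrp1 is lowest on wild-type injured array 2 at 0.77, and Axin2 is filled on 2 arrays.

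In wild type alone, no gene passed an adjusted p of 0.05 in limma (0% of 19615), and 2 members, Fzd1 and Wnt10a, passed an unadjusted p of 0.05 (6.39% of all genes). Fzd1 differed by -0.88 (unadjusted p = 0.0271) and Wnt10a by 1.31 (unadjusted p = 0.0391). Both calls were lost in limma without wild-type injured array 1, where Fzd1 differed by -0.83 (unadjusted p = 0.0878) and Wnt10a by 0.82 (unadjusted p = 0.107). In that fit Rspo1, Rspo4 and Sfrp1 differed by -1.23, 3.14 and -2.14. Rspo4 was tested only because 2 injured arrays were well above background, so its direction was set by that filter. Rspo1 was not well above background on wild-type injured array 2, the only injured array of the wild type in that fit. With all arrays, the members' median in wild type was -0.06 beside -0.05 over all genes. In deficiency, which compares 2 arrays with the spread borrowed from wild type, none passed (0% of 19614), and 2 members passed an unadjusted p of 0.05 (2.73% of all genes). These were Wif1 at -2.66 (unadjusted p = 0.00652) and Sfrp5 at -1.19 (unadjusted p = 0.0197). Over 2-fold higher on the deficient injured than the deficient sham array were 2 members, Rspo4 and Wnt16 (4.56% of all genes), and over 2-fold lower were 5, Wif1, Wnt4, Sfrp5, Fzd10 and Sfrp1 (5.33%). Wnt4 and Fzd10 were not well above background on the deficient injured array, which leaves Fzd10 at least 1.67-fold lower. Rspo4 was likewise dim on the deficient sham array.

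Gpr97 deficiency was accompanied by a higher level of Wnt9b, the ligand that induces nephrons and is made by collecting duct, on both deficient arrays. Wnt9b read -2.37 and -3.05 on the wild-type sham arrays and -1.67 and -3.05 on the wild-type injured arrays. It read -1.41 and -1.29 on the deficient sham and injured arrays. Both deficient arrays were above all 4 wild-type arrays, and wild-type injured array 1 came closest. Both deficient arrays were on slide 2 and slide 1 held wild-type arrays alone, so genotype and slide cannot be fully told apart. With normexp no member, Wnt9b and Fzd6 included, lay above all wild-type arrays, 4 lay below them, and the Wnt9b difference was 0.36. The difference was 1.19 (SE 0.45, limma, unadjusted p = 0.0452, adjusted p = 0.993). Without wild-type injured array 1 it was 1.5 (SE 0.30, unadjusted p = 0.00743, limma adjusted p = 0.667). No gene of the array passed the adjusted test (0% of 19615).

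Fzd6, a receptor of the planar cell polarity branch, was the other member with both deficient arrays above all wild-type arrays. It read between -0.98 and -0.86 on the 4 wild-type arrays and -0.53 and -0.65 on the deficient arrays. The difference was 0.33 (SE 0.15, limma adjusted p = 0.993). These 2 of 36 members compare with 4.33% of all genes. No member lay below all wild-type arrays (6.52% of all genes), and 1 member passed an unadjusted p of 0.05 (3.26%). The members' median was 0.10 beside -0.01 over all genes. With slide as a block it was 0.015 beside -0.016.

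When wild-type injured array 1 was left out, more genes separated. Fewer arrays then had to be passed, and the part of that array itself in this rise was not tested. Injured arrays were then all above sham for 5 members (14.4% of all genes), with Lrp5 and Rspo4 added, and all below for 6 (21.2%), with Sfrp1 and Wif1 added. Rspo4 was tested through its injured arrays alone, so its side was set by that filter. Deficient arrays were all above wild type for 5 members (8.73%), with Fzd7, Rspo1 and Wnt5b added.

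The injury difference was set against genotype in an interaction term, which asks whether the injury change differs between wild type and deficiency. Wif1, a secreted Wnt inhibitor, had the largest value among the members. It read -3.26 and -2.63 on the wild-type sham arrays and -2.73 and -3.29 on the wild-type injured arrays. It read -1.12 on the deficient sham array and -3.78 on the deficient injured array. The deficient sham array was thus the high one and the deficient injured array the low one. The interaction was -2.60 (SE 0.64, limma, unadjusted p = 0.0145), and -2.32 (SE 0.64) without wild-type injured array 1. No gene passed the adjusted test (0% of 19614), and 2 members passed an unadjusted p of 0.05 (1.49% of all genes). With that array left out, 4 members passed (2.46% of all genes), namely Wif1, Dkk3, Wnt16 and Rspo1.

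The second was Sfrp5, another Wnt-binding inhibitor. It read -3.73 on the deficient sham array and between -4.93 and -4.53 on the other 5 arrays. Its interaction was -1.23 (SE 0.39, limma, unadjusted p = 0.0339), and -1.28 (SE 0.42, unadjusted p = 0.0562) without wild-type injured array 1. Wnt10b, a beta-catenin-activating ligand, showed the same pattern, with -3.77 on the deficient sham array and no value well above background elsewhere. Its level there was at least 2.47-fold higher than on wild-type sham arrays and the deficient injured array was at least 4.31-fold lower. Wnt2b, a ligand of ureteric development, was at least 1.34-fold higher on the deficient sham array than on wild-type sham arrays and at least 2.33-fold lower on the deficient injured array. Other large interactions did not pass an unadjusted p of 0.05 in limma with all arrays. They were 1.85 (SE 1.73) for Wnt16, which turned to -0.65 with normexp and was 3.14 without wild-type injured array 1, -1.74 (SE 1.03) for Wnt4 and 1.33 (SE 0.79) for Dkk3. The Wnt16, Wnt4, Sfrp5 and Rspo1 interactions rest in part on values not well above background. Without wild-type injured array 1, Wnt16 and Rspo1 have only such a value for injured wild type.

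The deficient sham array was high in markers of cell division. Its 8 cell division markers had a median 2.59 above the wild-type sham mean, against 0.20 and -0.11 on the wild-type injured arrays and -1.04 on the deficient injured array. The median of its red blood cell markers, 4 of them tested, lay 2.54 above and that of its neutrophil markers 2.87 above. Both lists were split. Hba-a1 and Alas2 read 6.20 and 1.64 there, against at most 1.94 and -3.17 on wild-type sham arrays. Slc4a1 read 2.28, against 2.04 and 1.66. Epb42 (-4.99), Mpo (-2.87) and Csf3r (-4.80) lay between their 2 wild-type sham readings. The red blood cell median lay 1.99 above on wild-type injured array 1 and 1.18 above on the deficient injured array, and was -1.29 on wild-type injured array 2. The neutrophil median was also higher by 2.92, 2.11 and 2.82 on the 3 injured arrays, though Mpo was not (-3.29, -2.88 and -3.45). As 1 array carries these values, the part of that array, of its cells and of the genotype in the Wif1, Sfrp5, Wnt10b and Wnt2b values cannot be told apart.

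**Figure D4:**
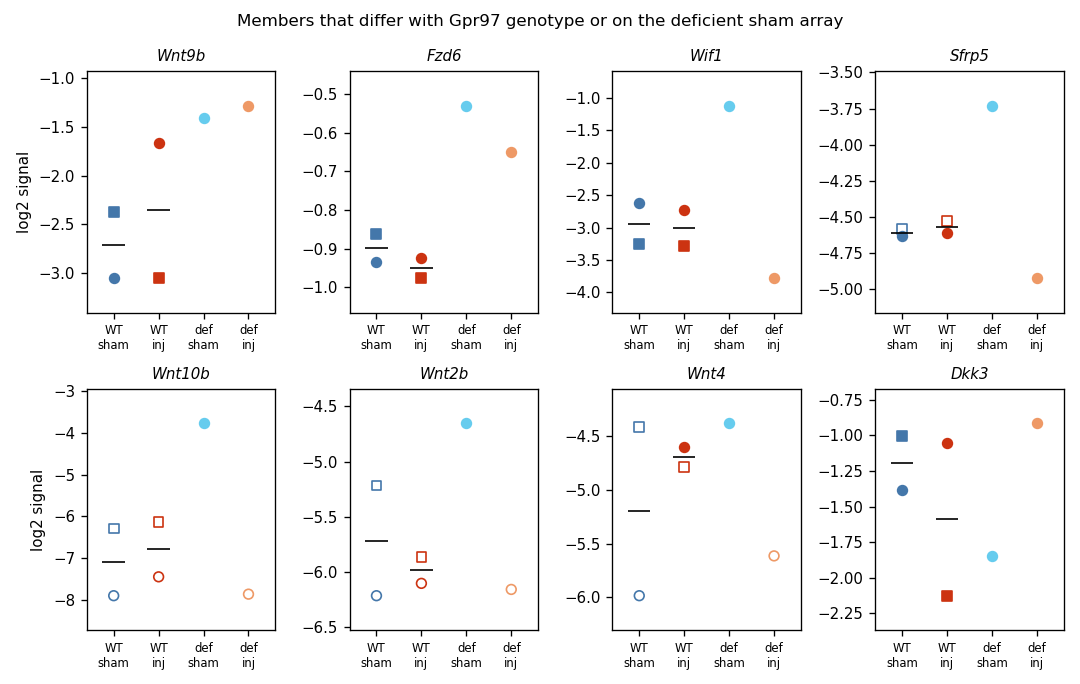
Log2 signal of Wnt9b, Fzd6, Wif1, Sfrp5, Wnt10b, Wnt2b, Wnt4 and Dkk3 on the 6 arrays, with squares for slide 1, circles for slide 2, bars for wild-type means of 2 arrays and open symbols where not well above background. Both deficient arrays are highest for Wnt9b and Fzd6, and the deficient sham array is highest for Wif1, Sfrp5, Wnt10b and Wnt2b.

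The other genes of the pathway were looked at from lists drawn up by function. Of 89 further pathway genes listed, 86 were tested. Injured arrays were all above sham for 14 and all below for 12, and 10 were higher and 5 lower at an unadjusted p under 0.05. Over all genes these shares were 9.69%, 13.1%, 5.56% and 6.71%. None passed the adjusted test, and the lowest adjusted p in limma was 0.140. The median difference was -0.04.

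Among the 22 beta-catenin feedback and target genes, 8 were higher on every injured array and 2 were lower, where 9.69% and 13.1% of all genes were. These counts were 8 and 4 without wild-type injured array 1 (14.4% and 21.2% of all genes). This list and its counts were known from earlier work on these arrays. Among the 8 were Mmp7, Plaur, Myc, Cd44, Snai1, Fn1 and Nkd2, the last well above background on 3 arrays. Several of these, such as Plaur, Cd44 and Fn1, are also known as general genes of tissue repair and matrix. The signals behind their values were not tested. Mmp7, a secreted protease of damaged tubules, read -6.20 and -6.36 on the wild-type sham arrays and -5.81 on the deficient sham array, none well above background. It read -1.69 and -0.78 on the wild-type injured arrays and 0.04 on the deficient injured array, at least 21.7-fold higher (limma adjusted p = 0.140). Myc, a growth regulator, differed by 2.33 (SE 0.47) and Cd44 by 1.81 (SE 0.36).

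The list also held genes that were lower or did not separate the surgeries. Sp5, a beta-catenin-induced transcription factor, was lower on every injured array (-0.48, SE 0.20) and so was Ccnd1, cyclin D1 (-0.68, SE 0.20). Axin2, Lef1, Tcf7, Lgr5, Notum, Rnf43 and Znrf3 did not separate the surgeries. Neither did Nkd1 (0.57, SE 0.40), Twist1, Jag1, Tnfrsf19 and Bambi.

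**Figure D5:**
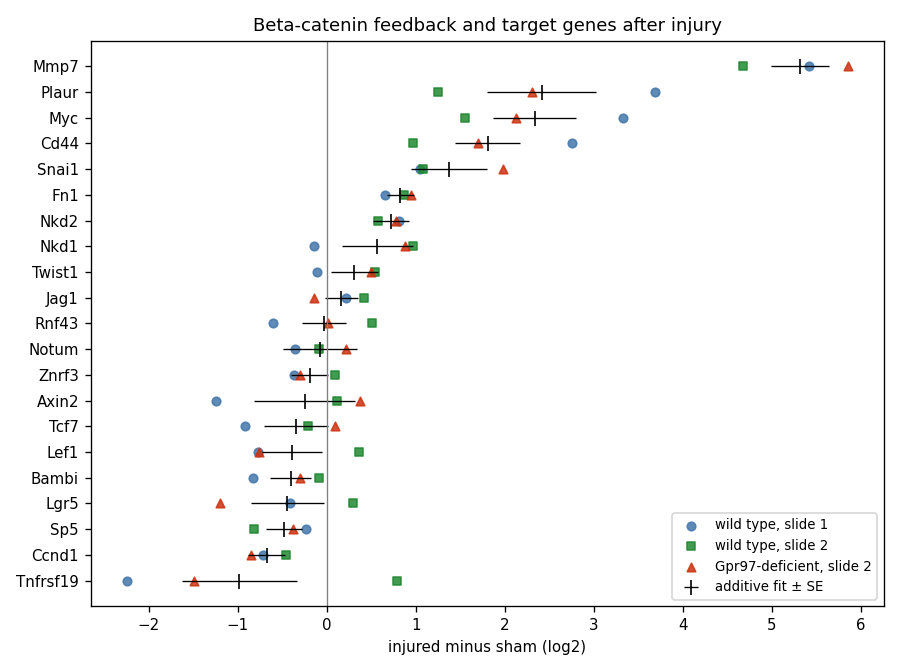
Injured minus sham difference (log2) of beta-catenin feedback and target genes in each of the 3 pairs of arrays, with the additive fit and its SE. Mmp7, Plaur, Myc and Cd44 lie far to the right in every pair, and Axin2, Lef1, Tcf7 and Lgr5 have pairs on both sides of 0.

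Of the 18 Wnt secretion and surface regulators tested, none was higher on every injured array and 3 were lower, beside 9.69% and 13.1% of all genes. These were Gpc4, a glypican that holds Wnts at the surface (-0.85, SE 0.34), Trabd2b, a protease that inactivates Wnts (-0.81, SE 0.28), and Wls, the carrier that brings Wnts to the surface (-0.25, SE 0.15). Read against the same shares, 2 of the 29 core components were higher, Gsk3a (0.44, SE 0.16) and Pygo2 (0.27, SE 0.15). The 4 that were lower included Ctnnbip1, an inhibitor of beta-catenin (-0.59, SE 0.17), and Fbxw11, which marks beta-catenin for destruction (-0.48, SE 0.18). Of the 24 planar cell polarity genes, 4 were higher and 3 lower, among them Invs (-0.49, SE 0.22) and Vangl1 (-0.39, SE 0.18), again beside 9.69% and 13.1% of all genes.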

How the data were processed

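Kidney RNA was read on 6 single-colour Agilent arrays in 4 groups. The authors deposited, per the file headers, Agilent Feature Extraction intensity (processed signal) with flags for well above background; limma is named in the submitters' processing notes. The authors' deposited series values are log2, with normalization not given in the sources used here (array medians 6.07 to 6.09). Here log2 processed signal was set relative to the 75th percentile of each array, flagged spots were left out and spots averaged. The brightest probe stood for its gene, and the 19615 genes flagged well above background on 2 or more arrays were tested with limma 3.58.1 in R 4.3.3. An additive fit gave injury and genotype, and a group-means fit the wild-type, deficient and interaction differences, with Benjamini-Hochberg adjustment over all genes. An exact permutation test of 3 against 3 arrays cannot go below p = 0.1, so none was used. Tests were checked on simulated data. No pair of the 15 pairs of arrays was identical. The number of arrays limits the precision. Members, lists and tests were chosen with earlier results of these data known. Named genes were members whose injured and sham, or deficient and wild-type, arrays did not overlap, the 4 with the largest interaction, the 4 nearest 0, Wnt4, Wnt9b, Wnt7b, Wnt11, Dkk3, Sfrp1 and Axin2, and the 2 most different non-overlapping genes of each further list. A result that this rule would name is not reported here. Other genes named were chosen after their values were seen. Alternatives were normexp, quantile normalization, the deposited values, other filters, the mean of probes, a variance trend, slide as a block and each array left out.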

Additional observations from a re-analysis of the deposited data

Results flagged for a closer look

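In 5 members both wild-type pairs of arrays went one way and the deficient pair the other. The differences of the injury change, deficient minus wild type, were 0.30 for Axin1, -0.56 for Fzd5, -0.37 for Fzd7, -1.23 for Sfrp5 and -0.27 for Wnt6. Deficiency had 1 array per surgery, and the share of all genes with this pattern is not given here. In limma, no adjusted p for this difference passed 0.05 for any of the 5, and Sfrp5 had an unadjusted p of 0.0339.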

How the results depend on the processing

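No member was called at an adjusted p of 0.05 under any of the settings run. Over all genes, 1 was called for injury over both genotypes with quantile normalization, the deposited values or slide as a block and 3 with a variance trend, which also called 1 for genotype. The labels give no replicate numbers shared between groups. Slide as a block, which with genotype sets each injured array against the sham array of its slide, changed no member's call. With normexp the members' medians were 0.46 for injury over both genotypes, 0.75 in wild type, -0.33 for genotype and -0.81 for the interaction, where the all-gene medians moved to 0.19, 0.28, -0.17 and -0.25. Then 1 member lay below all sham arrays, 0 were above and 4 below all wild-type arrays, and the differences were 0.37 for Fzd8, -0.65 for the Wnt16 interaction, 0.74 for Rspo1, -0.025 for Lrp5, 0.57 for Wnt4, 0.33 for Wnt11 and 0.54 for Axin2. With quantile normalization the genotype median was 0.17, and Fzd7, Wnt16 and Wnt4 gave -0.0074, -0.13 and 0.012. The deposited values left 2 members below sham and gave Fzd7 -0.0038, Wnt16 -0.14 and Wnt4 0.015. The genotype median was 0.027 with the mean of probes and 0.015 with slide as a block. The cause was not tested. Leaving out 1 array at a time gave a genotype median of 0.013 to 0.15, 3 to 7 members above and 4 to 7 below sham, and 2 to 8 above and 0 to 6 below wild type. Injury differences then ran from -0.089 to 0.13 (Fzd7), -0.58 to 0.65 (Rspo1), -0.60 to 0.93 (Wnt16), -0.14 to 0.22 (Lrp5), -0.69 to 0.51 (Wnt4), -0.71 to 0.39 (Axin2), -0.14 to 0.65 (Wnt9b), -0.32 to 0.31 (Wnt7b) and -0.40 to 0.48 (Dkk3). Without a deficient array, the deficient injury difference and the interaction could not be fitted. Dim probes limit Wnt4, Wnt10b, Rspo4 and Axin2, and in part Sfrp5, Rspo1 and Wnt16, with a higher floor on slide 1.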
